A study of Homo sapiens with 4 samples.

Results

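The cadherin genes that lie outside the protocadherin clusters, 49 in all, were followed through the 3 tables of differentially methylated tiles that the authors deposited for LY75-modulated SKOV3 clones. A tile of 1000 bp was a member when it overlapped the span of 1 of these genes, extended by 5 kb on either side. Of the 72455 tiles listed in at least 1 table, 390 were member tiles, and 43 of the 49 genes held at least 1 of them. The genes fall into 7 classes: 5 type I classical cadherins, 13 type II classical cadherins, 5 other cadherins, 10 unclustered protocadherins, 7 desmosomal cadherins, 6 genes of the FAT and DCHS families, and 3 CELSR genes.

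SKOV3, the cell line of all clones, is mesenchymal-like and comes from a human ovarian cancer, and LY75 is an endocytic antigen receptor. DNA methylation was profiled by reduced representation bisulfite sequencing (RRBS), which reads CpGs near the cut sites of MspI (CCGG), in 4 libraries, 1 per clone. The clones of M (mesenchymal-like) phenotype were shC-S, given a control shRNA, and LY75-R-S, which are LY75 knockdown cells that express an shRNA-resistant LY75 cDNA. The clones of E (epithelial-like) phenotype were sh-LY75-S, where an shRNA suppresses LY75, and LY75-KO-S, where CRISPR inactivates it. The knockdown comparison was shC-S vs. sh-LY75-S. Its counterpart, called knockout comparison, was LY75-R-S vs. LY75-KO-S. Each is named a single comparison. The mix sets both M clones against both E clones and so repeats the same libraries. No clone was replicated, so each difference is that of single libraries, and clone and phenotype cannot be told apart. All tile values below are differences in percent methylation computed by the authors, in percentage points, E minus M. They are called hypermethylated when positive and hypomethylated when negative. The tables hold tiles past the authors' thresholds (an absolute difference above 25 points) without reads, coverage or methylation per library. Depth is therefore unknown, and neither LY75 nor markers of the E and M phenotypes could be checked in the clones here. For a tile that is not listed, a small difference and a lack of reads cannot be told apart. The sign of the knockout comparison rests on the stated make-up of the mix, since the title of that table gives the clones in the opposite order.

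Cadherins are calcium-dependent adhesion receptors whose extracellular domains bind those of a neighbouring cell. Classical cadherins hold adherens junctions together through catenins, desmosomal cadherins anchor keratin filaments, and FAT, DCHS and CELSR proteins act in growth control and planar cell polarity. The exchange of E-cadherin (CDH1) for N-cadherin (CDH2) is a hallmark of epithelial-mesenchymal transition, and methylation of CpG-rich promoters is usually linked to silencing.

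The stretches of promoter tiles shown here are those of the transition markers CDH1 and CDH2, and of the 2 member genes with a promoter tile of the same direction in every table. A promoter tile is one within 2 kb of an annotated transcription start site (TSS) of its gene. Each stretch is the window of 200 bp with the most CpGs in its tile, outside untranslated exons, read 5′ to 3′ on the strand of the gene in GRCh37, with CpGs in capitals. The CDH1 window (chr16:68771444-68771643, plus strand, 24 CpGs) and both CDH2 windows (chr18:25755412-25755611 with 25 CpGs and chr18:25756724-25756923 with 37 CpGs, minus strand) lie in introns. The PCDH17 window (chr13:58203582-58203781, plus strand, 20 CpGs) and the CDH15 window (chr16:89236790-89236989, plus strand, 10 CpGs) lie upstream of the annotated transcripts, centred at -2197 and -1267 bp from the canonical TSS.
CDH1: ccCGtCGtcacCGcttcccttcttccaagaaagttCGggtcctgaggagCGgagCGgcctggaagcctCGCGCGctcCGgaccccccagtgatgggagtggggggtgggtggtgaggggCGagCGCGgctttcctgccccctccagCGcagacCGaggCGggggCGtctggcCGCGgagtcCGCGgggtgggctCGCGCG
CDH2, tile farther from the TSS: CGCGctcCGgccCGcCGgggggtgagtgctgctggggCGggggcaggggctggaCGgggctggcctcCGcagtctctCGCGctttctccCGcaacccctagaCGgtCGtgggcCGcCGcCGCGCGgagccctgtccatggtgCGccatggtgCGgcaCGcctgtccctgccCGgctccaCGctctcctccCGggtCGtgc
CDH2, tile nearer the TSS: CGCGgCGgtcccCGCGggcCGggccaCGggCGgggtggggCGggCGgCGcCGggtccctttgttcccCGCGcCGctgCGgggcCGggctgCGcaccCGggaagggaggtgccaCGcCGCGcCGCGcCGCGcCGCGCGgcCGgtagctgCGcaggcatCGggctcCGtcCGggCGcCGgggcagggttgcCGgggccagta
PCDH17: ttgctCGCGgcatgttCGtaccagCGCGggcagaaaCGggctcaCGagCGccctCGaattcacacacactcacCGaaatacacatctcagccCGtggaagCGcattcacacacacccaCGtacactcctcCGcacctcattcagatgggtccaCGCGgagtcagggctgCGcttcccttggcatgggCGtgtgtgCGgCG
CDH15: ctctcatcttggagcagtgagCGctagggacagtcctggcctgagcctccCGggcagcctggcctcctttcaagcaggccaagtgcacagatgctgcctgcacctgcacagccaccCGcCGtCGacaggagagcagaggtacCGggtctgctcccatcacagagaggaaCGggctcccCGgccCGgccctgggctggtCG
The CDH2 window nearer the TSS had a GC content of 84.5% and held 8 MspI sites, while the PCDH17 window had 61.5% and none within its 200 bp. A CpG count describes the reference sequence and does not say which CpGs were read.

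In the knockdown comparison, 289 member tiles were listed by the authors, of which 182 were hypermethylated and 107 hypomethylated in E cells. The hypermethylated share was 63.0% (95% Wilson interval 57.3 to 68.3%), against 64.7% of all tiles in the authors' table. Of 144 member tiles in the knockout comparison, 75 were hypermethylated (52.1%, 44 to 60.1%), against 54.7% of all. With the opposite order of subtraction, these shares would be 47.9% of member tiles and 45.3% of all. In the mix it was 82 of 129 (63.6%, 55.0 to 71.4%), against 65.0% of all. Intervals cover counting error only, and tiles of one gene are not independent. The interval included the share of all tiles in each table, but in the knockdown comparison CDH4 alone held 87 of the 289 tiles. Without CDH4 the share there was 51.5% (44.6 to 58.3%), below that of all tiles. The median absolute difference of the authors' listed member tiles was 50.0, 40.3 and 35.8 points, beside 50.0, 41.9 and 36.9 points for all tiles.

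The number of listed tiles per gene followed how many tiles MspI fragments can reach. Reachable tiles were those with a CpG within 50 bp of the end of a fragment of 40 to 220 bp in the reference, a size range assumed here. Across the 49 genes, which share the libraries, Spearman's rho of reachable against listed tiles was 0.742 in the knockdown comparison and 0.799 in the knockout comparison. Of 1444 reachable member tiles, 261 were listed in the knockdown comparison (18.1%, 16.2 to 20.1%), against 12.6% of reachable tiles in the genome. It was 128 in the knockout comparison (8.86%, 7.51 to 10.4%) against 6.67%, and in the mix 117 (8.1%, 6.8 to 9.62%) against 5.2%. A listed tile was found for 40 of the 49 genes (81.6%) in the knockdown comparison, where 60.3% of protein-coding genes had one within the same distance. The counts were 32 genes (65.3%) in the knockout comparison against 46.8%, and 31 genes (63.3%) in the mix against 38.2%. These counts per gene are not corrected for the length of the span. The genes without a listed tile in any table were PCDH12, CDH19, CDH17, DSC1, PCDH18 and DSG1, with 9, 6, 3, 3, 1 and 0 reachable tiles.

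**Figure D1:**
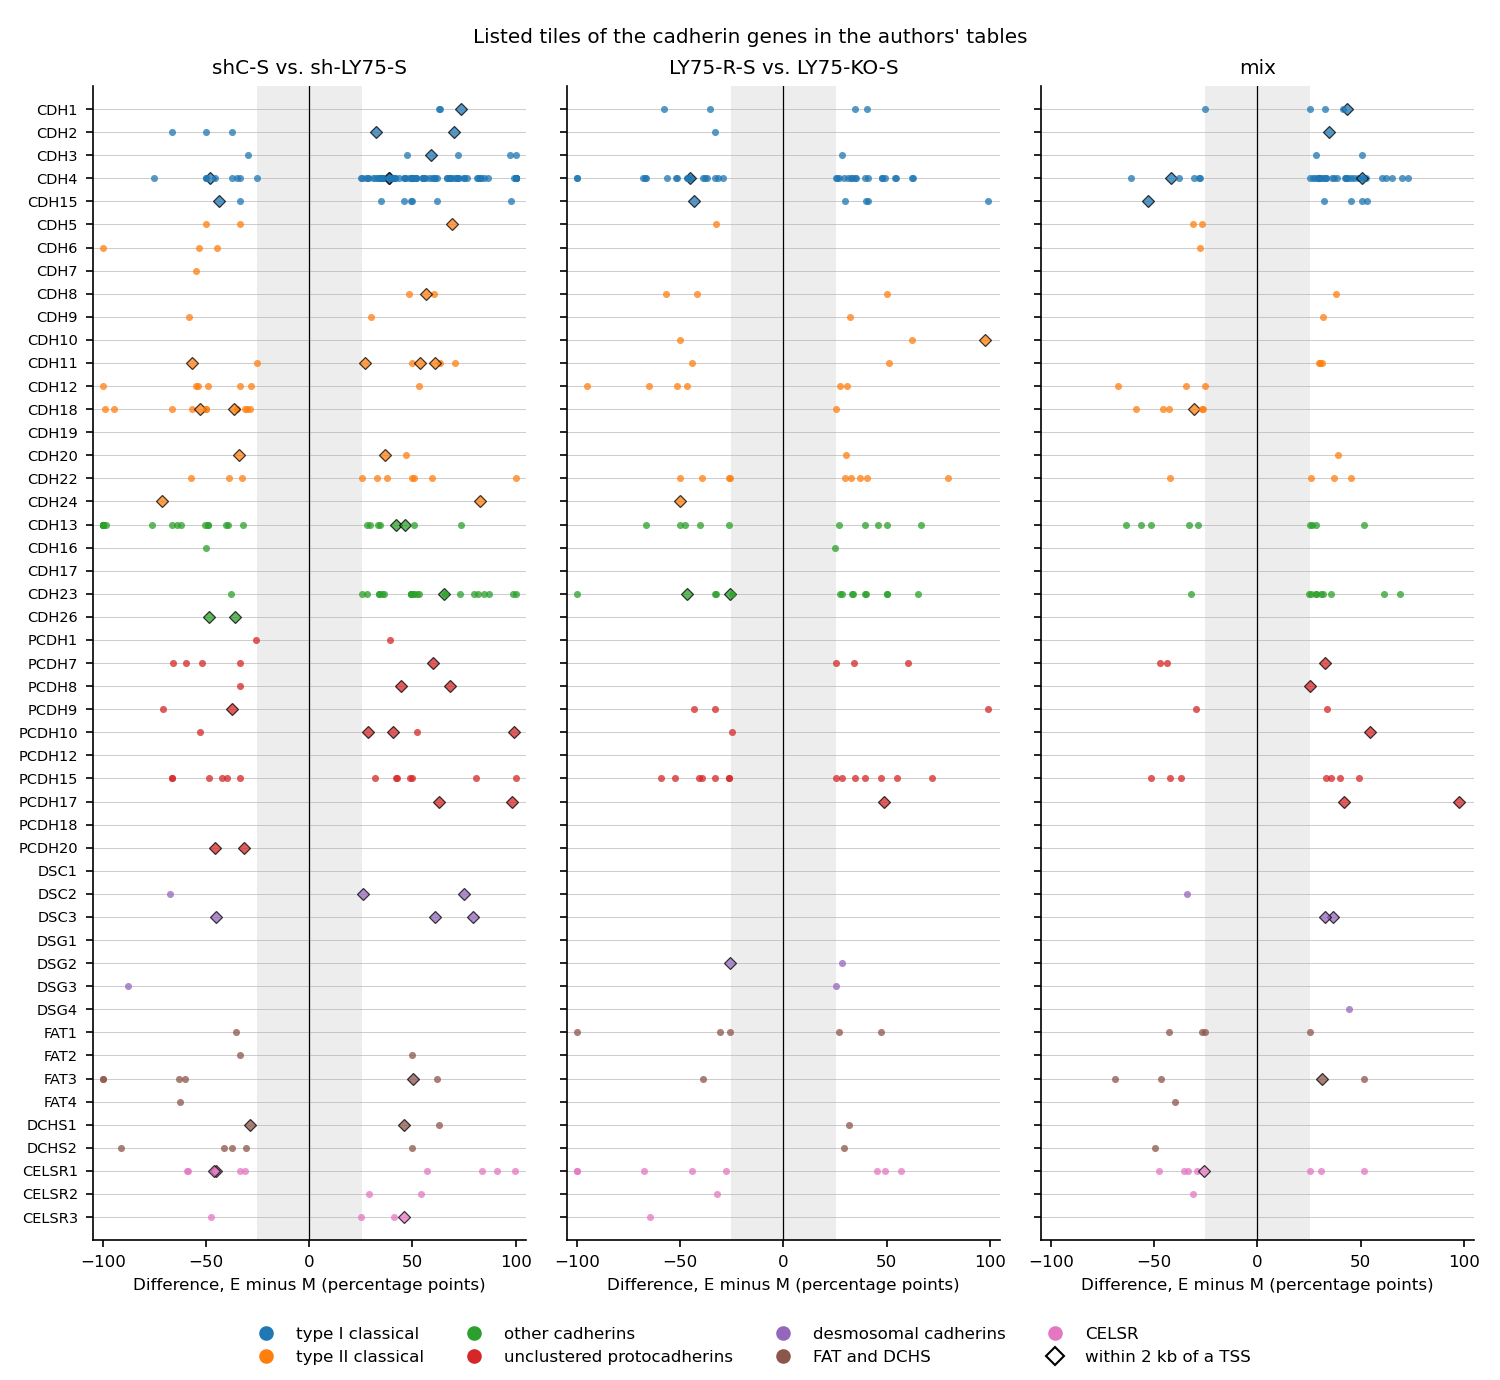
Difference in percent methylation (E minus M, percentage points, x axis) of every member tile in the authors' 3 tables, 1 row per gene, coloured by class, with diamonds for tiles within 2 kb of a TSS. The grey band marks differences under 25 points, which the tables leave out. CDH4 fills its row in the knockdown comparison with 78 hypermethylated and 9 hypomethylated tiles, whereas all 12 CDH18 tiles there lie on the hypomethylated side.

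Of 129 reachable promoter tiles of the cadherin genes, 45 were listed in the knockdown comparison (34.9%, 27.2 to 43.4%), against 15.1% of reachable promoter tiles of all protein-coding genes. The knockout comparison listed 7 of the 129 (5.43%, 2.65 to 10.8%), against 5.38%, and in the mix 15 (11.6%, 7.17 to 18.3%), against 6.44%. A listed promoter tile was found in 26 of the 49 genes in the knockdown comparison (53.1%), where 30.1% of protein-coding genes had one. The knockout comparison had 7 (14.3%) against 14.2%, and the mix 12 (24.5%) against 15.2%. With tiles outside the reachable set included, 31 of 47 promoter tiles in the knockdown comparison were hypermethylated in E cells (66.0%, 51.7 to 77.8%), against 55.6% of all listed promoter tiles. For the knockout comparison, 2 of 8 were hypermethylated (25%, 7.15 to 59.1%), against 53.3%. The opposite order of subtraction turns these to 6 of 8 (75%) and 46.7%, so the direction of the 8 tiles rests on the order read from the mix. For the mix it was 11 of 15 (73.3%, 48.0 to 89.1%), against 55.3%. The counting interval of the listed share lay above the genome-wide share in the knockdown comparison and in the mix, which contains those libraries, and included it in the knockout comparison. The difference between comparisons was not tested.

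In a split that was not planned beforehand, the direction at member promoters went with CpG number in the knockdown comparison. Of 28 member promoter tiles with 40 or more CpGs, 24 were hypermethylated in E cells (85.7%, 68.5 to 94.3%), and of 19 with fewer CpGs, 7 were (36.8%, 19.1 to 59.0%). Over all promoters in the authors' table these shares were 54.6% and 56.5%. The exceptions with 40 or more CpGs were tiles of CDH11, CELSR1, PCDH20 and DCHS1. Just 1 member promoter tile of the knockout comparison had 40 or more CpGs (DSG2), so the same split could not be described there. Over all member tiles, promoter or not, the hypermethylated share in the knockdown comparison was 25.8% below 10 CpGs, 53.3% from 10 to 19, 72.7% from 20 to 39 and 82.2% at 40 or more. For all listed tiles it was 52.6%, 65.5%, 70.5% and 60.7%. Leaving CDH4 out, the member shares were 23.3%, 47.4%, 50.9% and 80.5%. Member shares in the knockout comparison were 42.9%, 57.4%, 51.6% and 42.9%, the last over 7 tiles.

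**Figure D2:**
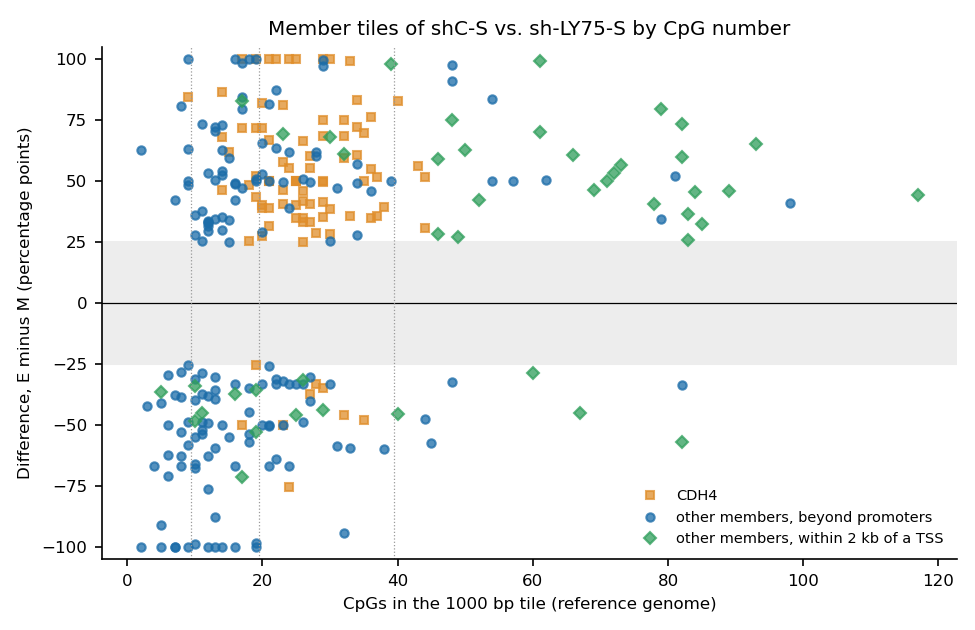
Member tiles of the knockdown comparison by the number of CpGs in the reference tile (x axis) and the authors' difference in percentage points (y axis, E minus M). Squares are CDH4, diamonds are promoter tiles and circles other tiles of the remaining genes, and dotted lines separate the CpG bins. Of the 45 tiles with 40 or more CpGs, 37 lie above 0, and of the 31 with fewer than 10, 23 lie below.

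The type I classical cadherins, which build the adherens junctions of epithelial, neural and muscle cells, had the highest hypermethylated share of the classes with 10 or more tiles in the knockdown comparison. There, 94 of 109 tiles were hypermethylated (86.2%, 78.5 to 91.5%), against 64.7% of all listed tiles. The class had 25 of 47 in the knockout comparison (53.2%, 39.2 to 66.7%), against 54.7% of all. In the mix it had 41 of 49 (83.7%, 71 to 91.5%), against 65.0% of all. CDH4 (R-cadherin, first described in retina) supplied 87 of the 109 tiles. Without it the class had 16 of 22 hypermethylated tiles in the knockdown comparison (72.7%, 51.8 to 86.8%), an interval that includes the 64.7% of all listed tiles. All member tiles together, without CDH4, had 104 of 202.

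CDH1 encodes E-cadherin, the adhesion receptor of epithelial cells. Its tile at the TSS (chr16:68771001-68772000), whose sequence is shown in part above, holds the start of transcription and the first coding exon and has 82 CpGs. The authors' difference was 73.6 points in the knockdown comparison and 43.2 points in the mix, and the tile was not listed in the knockout comparison. The methylation was thus higher in sh-LY75-S than in shC-S around the CDH1 start site, with no listed counterpart in the knockout comparison. An intronic tile 6746 bp from the TSS had 63.4 points in the knockdown comparison and 32.8 points in the mix. Far into the gene, 87746 bp from the TSS, an intronic tile with 2 CpGs was hypermethylated in every table, by 62.7, 40.4 and 41.5 points. The authors listed 4 CDH1 tiles in the knockout comparison, 2 in each direction.

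CDH2 encodes N-cadherin, the adhesion receptor of neural and mesenchymal cells. Its promoter tiles were hypermethylated too in the knockdown comparison, by 70.1 points in the intronic tile 1094 bp from the TSS (chr18:25755001-25756000, 61 CpGs) and by 32.3 points in the tile with the first coding exon (chr18:25756001-25757000, 85 CpGs). The mix listed the former alone, at 34.8 points, and the knockout comparison listed neither. The start regions of both transition markers therefore had the same direction in the knockdown comparison. The other 3 CDH2 tiles of that comparison were hypomethylated, the lowest by -66.7 points, and the single CDH2 tile of the knockout comparison was at -33.0 points. The paper cites earlier work in which LY75 depletion in SKOV3 cells induced E-cadherin and reduced N-cadherin. Its own Western blots show the same change of both proteins after LY75 knockdown in OVCAR8 cells, another ovarian cancer line. A Wnt/β-catenin inhibitor had that effect in SKOV3 and OVCAR8 cells too, which the paper likens to LY75 knockdown. Expression was not measured in the data used here, so its relation to these tiles was not tested.

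CDH3 encodes P-cadherin, found in basal epithelial layers. It had 6 tiles in the knockdown comparison, 5 of them hypermethylated, with 59.0 points in a tile that holds a TSS (chr16:68678001-68679000). CDH15 encodes M-cadherin of skeletal muscle. Its upstream tile (chr16:89236001-89237000, 29 CpGs, 1156 bp from the TSS) was hypomethylated in every table, by -43.7 points in the knockdown comparison, -43.4 points in the knockout comparison and -52.9 points in the mix. The single comparisons differed there by 0.322 points. Inside the gene, a coding tile of CDH15 19845 bp from the TSS went the other way in every table, with 34.6, 41.2 and 50.5 points. At both CDH15 tiles the mix value was larger in size than either single value, and how the mix combined the libraries is not given.

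CDH4 had a listed tile in 29.6% of its 277 reachable tiles in the knockdown comparison. Of its 87 tiles there, 78 were hypermethylated (89.7%), with a range of -75.3 to 100.0 points and a median of 50.0 points. The 36 tiles of the knockout comparison were divided into 18 and 18, and in the mix 30 of 36 were hypermethylated. The tiles within 1 Mb on either side of the gene were also mostly hypermethylated in the knockdown comparison, 110 of 133 (82.7%), beside 66.8% of all listed tiles on chromosome 20. The flanks had 26 of 57 in the knockout comparison (45.6%). The promoter tile near the canonical TSS of CDH4 went against the gene body, with -48.1 points in the knockdown comparison and -42.1 points in the mix. At internal start sites about 346 to 349 kb downstream, tiles had 38.5 and 38.8 points in the knockdown comparison and -45.3 points in the knockout comparison.

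The type II classical cadherins, expressed mainly in the nervous system, vessels and mesenchyme, had 22 of 54 hypermethylated tiles in the knockdown comparison (40.7%, 28.7 to 54.0%). It was 14 of 28 in the knockout comparison (50.0%) and 9 of 22 in the mix (40.9%). Over all listed tiles the shares were 64.7%, 54.7% and 65.0%, and the knockdown interval of the class lay below the first. CDH18, a cadherin of the central nervous system, held the most tiles in the knockdown comparison, and all 12 were hypomethylated, from -98.9 to -28.9 points. The mix listed 6 CDH18 tiles, all hypomethylated, and the knockout comparison listed 1, at 25.7 points. Within 1 Mb on either side of CDH18, 4 of 15 tiles were hypermethylated in the knockdown comparison (26.7%), against 62.2% over chromosome 5. Without CDH18, the class had 22 of 42 hypermethylated tiles in the knockdown comparison (52.4%, 37.7 to 66.6%), an interval that includes the 64.7% of all listed tiles. Leaving CDH18 out was chosen after seeing that all its tiles there were hypomethylated, so the share had to rise. CDH12, a neighbour on the same arm, had 1 hypermethylated and 6 hypomethylated tiles. CDH22 had 7 hypermethylated and 3 hypomethylated tiles in the knockdown comparison, and 5 and 4 in the knockout comparison.

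At the start sites of the type II genes both directions occurred, sometimes in adjacent tiles. CDH5 encodes VE-cadherin of endothelial cells, and the tile that holds its TSS had 69.2 points in the knockdown comparison. CDH11 encodes the osteoblast cadherin, and it had 4 promoter tiles in a row in that comparison. The tile at the start of its canonical transcript was at -56.9 points, while its neighbours had 27.0 points on the gene side and 53.5 and 60.7 points upstream of that start. CDH8 had 56.7 points, and CDH20 had 36.5 points at the TSS and -34.0 points farther inside. CDH24 had -71.2 points at a TSS (chr14:23525001-23526000) and 82.8 points in a coding tile 1035 bp from a TSS (chr14:23523001-23524000). The latter tile had -50.0 points in the knockout comparison, so the single comparisons were opposite. CDH10 had no tile in the knockdown comparison, and the tile that holds its TSS had 97.6 points in the knockout comparison. No other promoter tile of a member reached that size in the knockout comparison. With the fragment sizes assumed here, none of the CpGs in this CDH10 tile counted as reachable.

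Among the other cadherins, CDH23 and CDH13 had opposite balances in the knockdown comparison. The class had 30 of 51 hypermethylated tiles there (58.8%, 45.2 to 71.2%), 15 of 26 in the knockout comparison (57.7%) and 13 of 19 in the mix (68.4%). All listed tiles had shares of 64.7%, 54.7% and 65.0%. CDH23, the tip-link cadherin of inner-ear hair cells, had 22 hypermethylated tiles and 1 hypomethylated tile in the knockdown comparison, 9 and 6 in the knockout comparison, and 9 and 1 in the mix. Its flanks of 1 Mb were hypermethylated in 49 of 63 tiles (77.8%) in the knockdown comparison, and chromosome 10 in 67%. CDH13 encodes T-cadherin, which is held in the membrane by a lipid anchor and lacks a cytoplasmic domain. It had 8 hypermethylated and 17 hypomethylated tiles in the knockdown comparison, although 51 of 75 tiles in its flanks (68.0%) were hypermethylated. Without CDH23 the class had 8 of 28 hypermethylated tiles (28.6%, 15.3 to 47.1%).

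The start sites of both genes were hypermethylated in the knockdown comparison. CDH13 had 42.3 points in the tile that holds its TSS (52 CpGs) and 46.2 points in the next (69 CpGs), against the balance of its gene body. CDH23 had 65.2 points 282 bp from the TSS, in a tile with 93 CpGs. In the knockout comparison these tiles were not listed, and the listed promoter tiles of CDH23 lay at internal starts, with -46.6 and -25.9 points. CDH26, a cadherin of epithelia, had -48.5 and -35.8 points at its start sites in the knockdown comparison.

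**Figure D3:**
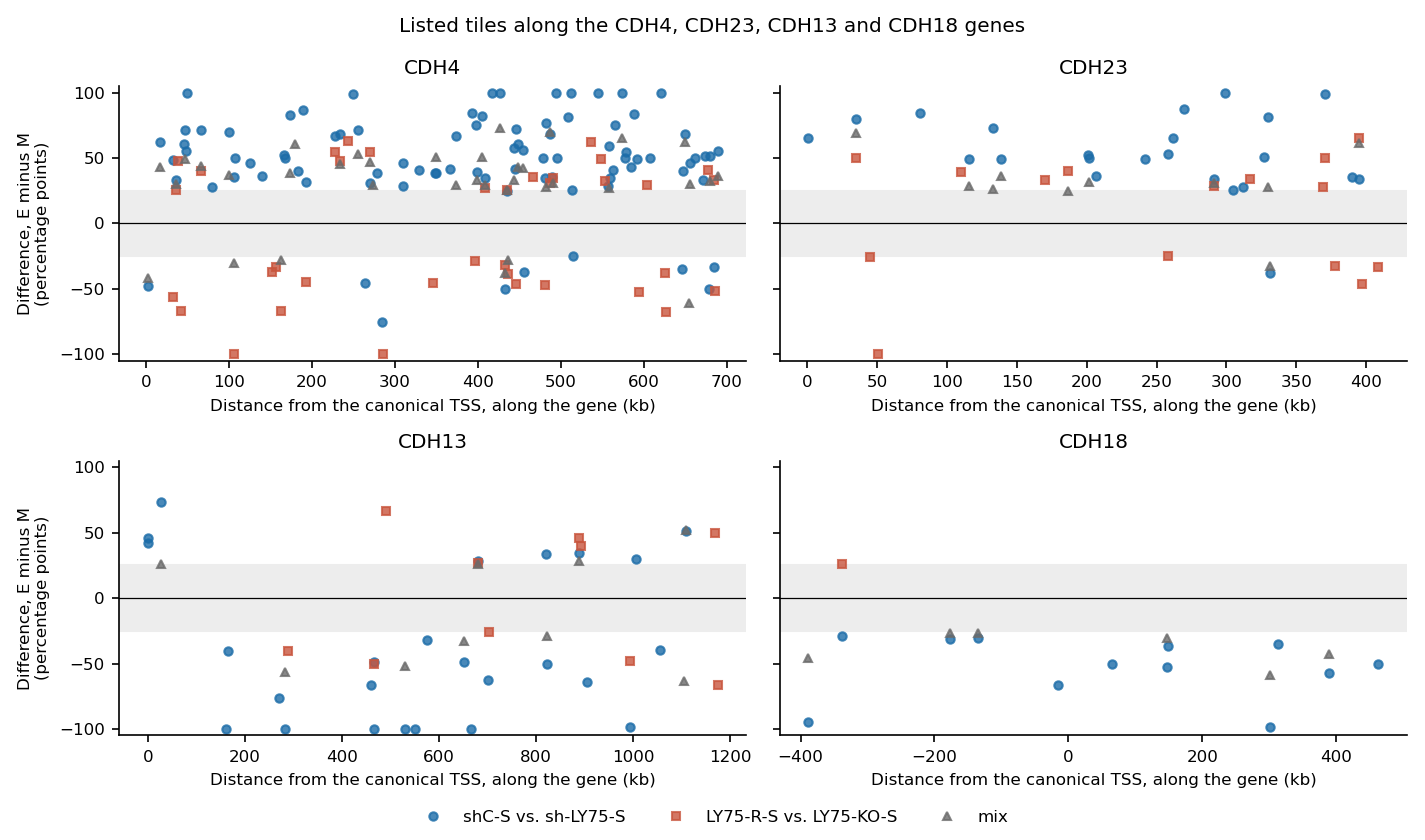
Tiles of the authors' 3 tables along CDH4, CDH23, CDH13 and CDH18: distance from the canonical TSS in the direction of transcription (kb, x axis) against the difference in percent methylation (E minus M, percentage points, y axis), with circles for the knockdown comparison, squares for the knockout comparison and triangles for the mix. CDH4 and CDH23 are mostly above 0 in the knockdown comparison along their whole length, CDH13 is above 0 near its start and mixed beyond, and the 12 circles of CDH18 are all below 0.

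Of the 49 genes, 7 span more than 500 kb (CDH4, CDH12, CDH13, CDH18, PCDH9, PCDH15 and FAT3). In the knockdown comparison the long genes had 96 of 152 hypermethylated tiles (63.2%, 55.3 to 70.4%). The genes of up to 500 kb had 86 of 137 (62.8%, 54.4 to 70.4%). Of all listed tiles, 64.7% were hypermethylated there. CDH4 held 87 of the 152 tiles, and without it the long genes had 18 of 65 (27.7%, 18.3 to 39.6%). Leaving CDH4 out was chosen after seeing the data. Tiles of the long genes held a median of 21.5 CpGs, or 13.0 without CDH4, and those of the shorter genes 21.0. Span and CpG number thus moved together only without CDH4, and their parts were not tested. In the knockout comparison the long genes had 34 of 71 hypermethylated tiles (47.9%), or 16 of 35 without CDH4 (45.7%), and the shorter genes 41 of 73 (56.2%). The share of all listed tiles there was 54.7%.

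The unclustered protocadherins, solitary relatives of the clustered family that are studied in neural development and as methylated genes in tumours, had 17 of 34 hypermethylated tiles in the knockdown comparison (50.0%, 34.1 to 65.9%). In the knockout comparison it was 12 of 22 (54.5%), and in the mix 10 of 16 (62.5%). Over all listed tiles the shares were 64.7%, 54.7% and 65.0%. Their promoters were hypermethylated in 8 of 11 tiles in the knockdown comparison (72.7%, 43.4 to 90.3%), an interval that includes the 55.6% of all listed promoter tiles. PCDH17 had the identical upstream tile hypermethylated in every table (chr13:58203001-58204000, 39 CpGs, 1878 bp from the TSS), with 98.2 points in the knockdown comparison, 48.6 points in the knockout comparison and 97.8 points in the mix. The adjacent tile, nearer to the start, had 62.7 points in the knockdown comparison and 42.0 points in the mix. PCDH10 had 99.2 points in the tile upstream of its start (chr4:134069001-134070000, 61 CpGs), 28.4 points at the TSS and 40.8 points in the coding exon behind it. The mix listed the first of these at 54.4 points, and the knockout comparison listed none of the PCDH10 promoter tiles.

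PCDH8 had 68.0 points upstream and 44.5 points in its coding exon in the knockdown comparison, and PCDH7 had 60 points near its start. PCDH20 and PCDH9 had promoter tiles of the opposite direction, at -45.6 and -31.6 points for PCDH20 and -37.4 points for PCDH9. PCDH15, which forms the hair-cell tip link together with CDH23, held the most tiles of the class. It had 7 hypermethylated and 6 hypomethylated tiles in the knockdown comparison and 7 of each in the knockout comparison. Of the PCDH15 tiles, 7 were listed in both single comparisons, 6 of them in the same direction.

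The desmosomal cadherins, which join epithelial cells to each other at desmosomes, lie side by side on chromosome 18. They have 35 reachable tiles in all, and the authors' tables listed 7, 3 and 4 tiles, of which 4, 2 and 3 were hypermethylated. Of all listed tiles, 64.7%, 54.7% and 65.0% were. DSC3 (desmocollin 3, of basal layers) had 79.6 points in the tile that holds its TSS (chr18:28622001-28623000, 79 CpGs) and 61.0 points in the tile upstream, both in the knockdown comparison. An intronic DSC3 tile of the same comparison, 1708 bp from the TSS and with 11 CpGs, was at -45.2 points. The mix had 36.9 and 32.6 points in the former tiles and did not list the intronic one. DSC2, the most widely expressed desmocollin, had 75 points at its TSS and 25.8 points in the next tile in the knockdown comparison. DSG2, its desmoglein counterpart, had tiles in the knockout comparison alone, 1 upstream of the TSS at -25.8 points, close to the threshold, and 1 in an intron at 28.2 points. DSG3, a desmoglein of stratified epithelia, had 1 tile 6297 bp from the TSS, with -87.9 points in the knockdown comparison and 25.3 points in the knockout comparison.

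FAT and DCHS proteins are giant cadherins, of which FAT4 and DCHS1 bind each other across cell contacts. Their genes had 6 of 18 hypermethylated tiles in the knockdown comparison (33.3%, 16.3 to 56.3%), 4 of 8 in the knockout comparison and 3 of 10 in the mix. Over all listed tiles the shares were 64.7%, 54.7% and 65.0%, and the knockdown interval of these genes lay below the first. FAT3 had 50.1 points in an intronic tile 1017 bp from its TSS in the knockdown comparison, and 31.5 points in the tile before it in the mix. DCHS1 had 45.8 points in the tile just inside its start (89 CpGs) and -28.6 points in the tile that holds the TSS. DCHS2 had 5 tiles in the knockdown comparison, 4 of them hypomethylated, down to -91.2 points. FAT1 had 1 tile in the knockdown comparison and 5 in the knockout comparison.

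CELSR proteins, receptors of planar polarity with cadherin repeats and a seven-pass membrane domain, had 9 of 16 hypermethylated tiles in the knockdown comparison (56.2%, 33.2 to 76.9%), 3 of 10 in the knockout comparison and 3 of 9 in the mix. Over all listed tiles the shares were 64.7%, 54.7% and 65.0%, and the knockdown interval of the CELSR genes includes the first. CELSR1 held 10, 8 and 8 of the CELSR tiles. Upstream of its start it was hypomethylated in the knockdown comparison, by -45.0 points 484 bp and by -46.0 points 1484 bp from the TSS, and the former had -25.9 points in the mix. CELSR3 had 45.7 points 319 bp from its TSS in the knockdown comparison, in a tile with 84 CpGs. No promoter tile of a CELSR, FAT or DCHS gene was listed in the knockout comparison.

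**Figure D4:**
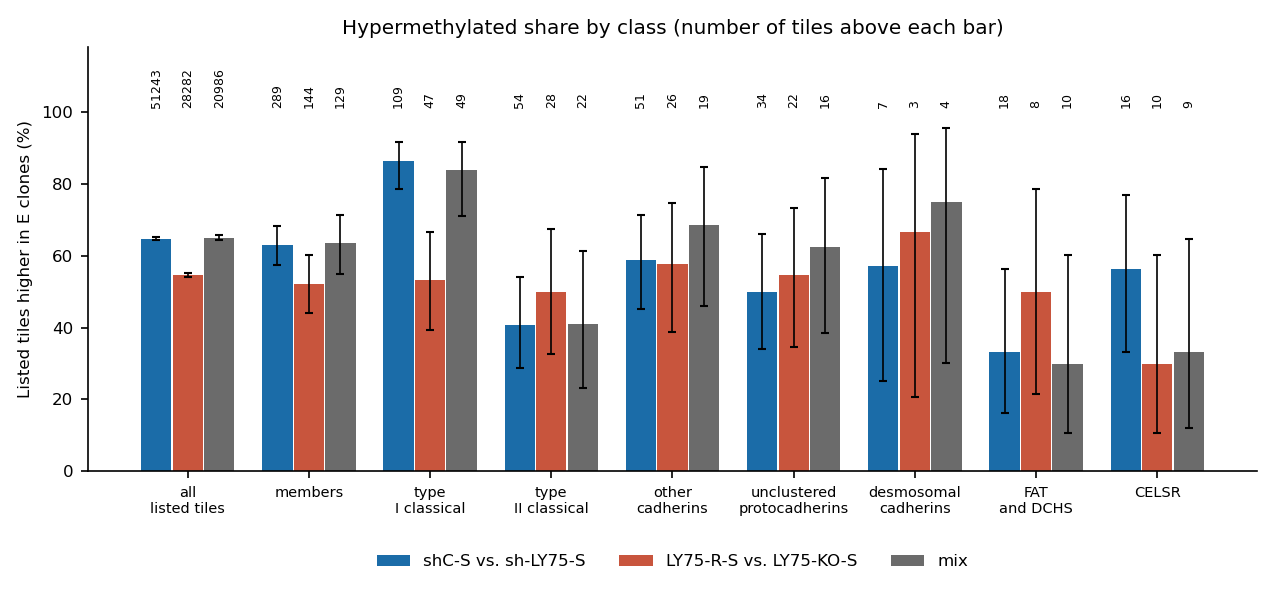
Share of the authors' listed tiles that were higher in the E clones (y axis, %) for all tiles, the 49 cadherin genes and their classes, with bars for the 3 tables, the number of tiles above each bar and 95% Wilson intervals as error bars. Type I classical cadherins stand at 86.2% in the knockdown comparison and 53.2% in the knockout comparison, and FAT and DCHS at 33.3% and 50.0%.

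The knockdown and knockout comparisons share no library, although LY75-R-S was made from LY75 knockdown cells, so tiles listed in both can be set side by side. The identical member tile was listed in both for 54 tiles of 24 genes, which is 18.7% of the member tiles of the knockdown comparison and 37.5% of those of the knockout comparison. Over all tiles the overlap was 16.3% and 29.5%. Of the 54 tiles, 35 had the same direction (64.8%, 51.5 to 76.2%), 26 hypermethylated and 9 hypomethylated. Over the 8345 tiles of the genome listed in both, the share was 52.6%, which lies inside that interval. The other 19 of the 54 member tiles were opposite, 10 of them hypermethylated in the knockdown comparison. CDH4 held 14 of the 54, with 9 in the same direction, and PCDH15 held 7, with 6 in the same direction. Without CDH4 the same-direction share was 65.0%. With the opposite order of subtraction in the knockout comparison the share would be 35.2%. Of the 54 tiles, 3 were promoter tiles: those of PCDH17 and CDH15 had the same direction and that of CDH24 the opposite.

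**Figure D5:**
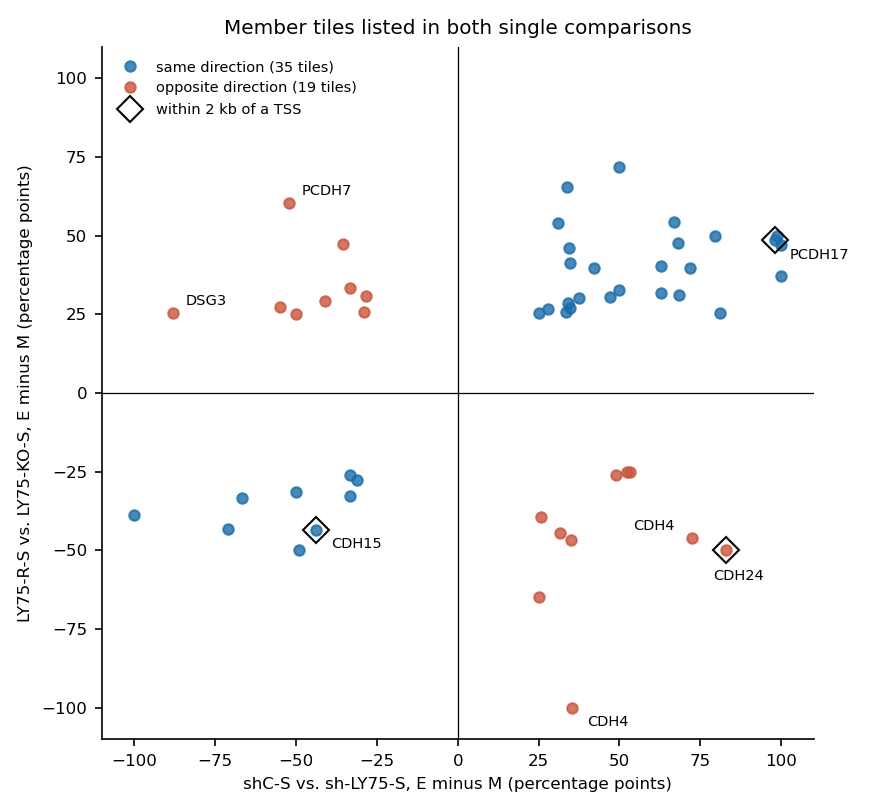
The 54 member tiles listed in both single comparisons, with the authors' difference in the knockdown comparison on the x axis and in the knockout comparison on the y axis (percentage points, E minus M). Blue points are the 35 tiles of the same direction, red points the 19 of opposite direction, open diamonds the 3 promoter tiles, and names mark the promoter tiles and the opposite tiles at least 100 points apart.

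Of 26 genes for junction partners (catenins, desmosomal plaque proteins, nectins and other adherens junction proteins, and planar polarity partners), 23 had a listed tile in the knockdown comparison (88.5%), against 60.3% of protein-coding genes. It was 19 in the knockout comparison (73.1%) against 46.8%, and 18 in the mix (69.2%) against 38.2%. Promoter tiles were listed for 11, 4 and 8 of them (42.3%, 15.4% and 30.8%), against 30.1%, 14.2% and 15.2% of protein-coding genes. These counts too are not corrected for the length of the span or for the number of start sites. Tiles were mostly hypermethylated in 12 genes and mostly hypomethylated in 9 in the knockdown comparison, and in 12 and 5 in the knockout comparison. Over their 104, 61 and 49 tiles the hypermethylated share was 51.0%, 59.0% and 44.9%, against 64.7%, 54.7% and 65.0% of all tiles.

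Of the partner promoter tiles in the knockdown comparison, 8 were hypermethylated and 12 hypomethylated, where 55.6% of all listed promoter tiles were hypermethylated. In the knockout comparison the counts were 1 and 3 (53.3% of all listed promoter tiles hypermethylated), and in the mix 2 and 9 (55.3%). The same promoter tile was listed in every table for AFDN, an adherens junction protein, and for ARVCF, a catenin. The AFDN tile was hypomethylated in each, with -33.3 points in the knockout comparison and -83.1 points in the mix. The ARVCF tile was hypermethylated in each, with 31.8 and 48.2 points there. A further ARVCF promoter tile had -44.6 points in the knockdown comparison and -35.5 points in the mix. NECTIN2, a nectin of adherens junctions, was at -69.6 and -87.4 points in the knockdown comparison and at -30.0 and -26.9 points in the mix. NECTIN3, of the same family, had 34.8 points in the knockdown comparison. FJX1, counted here among the planar polarity partners, had -76.4 and -71.8 points in the knockdown comparison and -40.0 and -38.2 points in the mix. PRICKLE2, a planar polarity protein, had 3 hypermethylated promoter tiles in the knockdown comparison, the lowest at 35.5 points. These partner genes are named after their values were seen.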

How the data were processed

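RRBS reads of 50 bp from 4 libraries were processed by the authors with Trim Galore 0.4.1, Bismark 0.16.1 and methylKit, per the labels and the submitters' processing notes. The deposited tables give, for tiles of 1000 bp on hg19 (GRCh37), the authors' score of difference in percent methylation, a p-value and a q-value. Coverage minima and the handling of libraries in the mix are not given in the sources used here. The names of the deposited tables state q below 0.01, whereas the paper states an adjusted p-value below 0.05. In the deposited table of the knockdown comparison, 55.5% of q-values were below the p-value. These columns are the authors' comparisons of single libraries, used here because no other values were in the tables, and no test was run. Without molecular identifiers, RRBS reads may repeat 1 molecule, and such p-values can be too small.

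Positive was read as higher in E. For the knockdown comparison this followed 10 of 10 genes with a stated direction. For the knockout comparison it followed a least-squares fit of the mix over 4250 tiles, with coefficients 0.534 and 0.435. Genes, TSS (basic transcripts) and sequences came from GENCODE release 44 and GRCh37. Named were CDH1 and CDH2, genes with a promoter tile in both single comparisons, the 3 largest promoter tiles per class and single comparison, the gene with most tiles per class, and genes without tiles. Other tiles named beside them were chosen after their values were seen. The members, lists and alternatives were chosen with earlier results of these data known. The splits by CpG number and by gene span were not planned beforehand. Counting was tested on simulated data. Python 3.11.15, pandas 2.3.3, numpy 2.4.6, scipy 1.17.1, pysam 0.24.0 and matplotlib 3.10.9 were used.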

Additional observations from a re-analysis of the deposited data

Results flagged for a closer look

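Of the member tiles with opposite directions in the single comparisons, 5 lay at least 100 points apart. The CDH24 tile at chr14:23523001-23524000, in a coding exon, had 82.8 points in the knockdown comparison and -50.0 points in the knockout comparison. In CDH4, an intronic tile about 106 kb into the gene had 35.4 and -100 points, and a second (chr20:60273001-60274000) had 72.4 and -46.1 points. The DSG3 tile had -87.9 and 25.3 points, and an intronic PCDH7 tile with 11 CpGs had -52.1 and 60.4 points. The difference between the comparisons was not tested, as each clone has 1 library, and with the signs of the knockout comparison exchanged these tiles would have the same direction.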

How the results depend on the processing

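No paired analysis was possible because each clone has 1 library and the tables hold comparisons, not samples. The thresholds on the difference moved the counts by construction. At 50 points or more, 162, 46 and 27 member tiles were left in the knockdown comparison, the knockout comparison and the mix, with medians of 66.2, 62.5 and 56.4 points, and at 70 points or more 67, 12 and 3, with medians of 91.1, 99.6 and 73.0 points. The hypermethylated share at 70 points was 71.6% in the knockdown comparison and 100.0% in the mix, whereas in the knockout comparison hypomethylated tiles were in the majority (hypermethylated 43.5% at 50 points and 41.7% at 70). For promoters in the knockdown comparison it was 85.7% at 50 points. With the 5-prime end of the gene span as the only start site, it was 60% over 5 promoter tiles in the knockout comparison, against 25% over 8. Type I classical cadherins had 92.1% and 96.6% at 50 and 70 points in the knockdown comparison, and 35.7% at 50 points in the knockout comparison. Chosen after seeing the data, leaving out CDH4 gave 51.5% over all member tiles and 72.7% in type I, and leaving out CDH23 gave 28.6% in the other cadherins, all in the knockdown comparison. The opposite order of subtraction in the knockout comparison turned the same-direction share to 35.2% and, tried after seeing the data, the promoter share to 75%. The cause of these shifts was not tested. Of 191 values under alternatives (a stricter q-value, the span without extension, tile midpoints, tiles of other genes or of 100 points left out, other promoter windows), the remaining 165 stayed within 1.5 times the count or within the 95% interval of the value reported. Class shares over fewer than 10 tiles are not given. No coverage minimum could be varied, and depth is unknown.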
